A study of Mus musculus with 15 samples.

Results

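Hepatic allografts on day 100 were compared with syngeneic grafts on day 5 for every mouse miRNA on the array. Day 100 is the time at which recipients that received no immunosuppressant carry a long-accepted liver, and the syngeneic graft is the study's reference without an alloimmune response. The question was which miRNAs still differed in the accepted graft. The allografts were livers of male B10.BR (H2-Kk) donors placed in B10.D2 (H2-Kd) recipients, and 3 of them were taken 100 days after surgery. The 3 syngeneic grafts were taken on day 5. Their strain label names the same B10.BR and B10.D2 pair, so they were treated as syngeneic on the strength of their titles, and the strain of that group cannot be settled from the labels. Both groups were transplanted livers, and each array held RNA of 1 whole graft, in which fewer cells of a type and less RNA per cell cannot be told apart. No syngeneic graft of day 100 was analysed here, so the effect of an allogeneic graft and that of the longer time after surgery cannot be told apart. The arrays hold no readout of tolerance itself. These 6 arrays are part of 15 in the series, and all 567 mouse miRNAs on the array were considered. Of these, 103 were detected on all 3 arrays of at least 1 of the 5 groups and were tested. The other 464 did not pass this filter. Of the tested miRNAs, 52 were detected on all 6 arrays, and 36 passed only through another group, being detected on fewer than 3 arrays of each group compared.

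MiRNAs are short RNAs that guide the Argonaute complex to partly complementary sites in messenger RNAs, which are then translated less and degraded faster. Pairing starts at the seed, bases 2 to 8 counted from the 5′ end, so miRNAs that share a seed are grouped as a family and share many targets. In liver, miR-122 makes up much of the miRNA of hepatocytes, miR-192 and miR-194 mark epithelial cells, and miR-29 represses collagens and other matrix genes. MiR-223 and miR-342-3p come mainly from leukocytes, and miR-21 is known to rise in injured and inflamed tissue.

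The sequences below belong to the miRNAs on which the comparison turned and to close relatives that shared a seed but were not called. All are mature sequences from RefSeq on build GRCm38.p6, written 5′ to 3′ with the seed in capitals. The first set holds miRNAs that were lower on day 100, with miR-29a and miR-30c, which share a seed with lower members and were not called.
miR-101a: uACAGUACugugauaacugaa
miR-101b: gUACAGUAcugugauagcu
miR-29a: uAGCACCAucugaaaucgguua
miR-29b: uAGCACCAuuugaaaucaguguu
miR-29c: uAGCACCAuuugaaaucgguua
miR-30a: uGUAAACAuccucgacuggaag
miR-30e: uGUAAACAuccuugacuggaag
miR-30c: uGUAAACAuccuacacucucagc
miR-21: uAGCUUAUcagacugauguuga
miR-19a: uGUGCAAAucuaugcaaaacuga
miR-192: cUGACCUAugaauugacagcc
miR-194: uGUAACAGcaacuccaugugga

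The other set holds miRNAs that were higher on day 100, with miR-16 and miR-27b as relatives that were not called.
miR-342-3p: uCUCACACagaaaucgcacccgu
miR-15b: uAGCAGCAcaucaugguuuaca
miR-16: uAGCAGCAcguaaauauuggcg
miR-195: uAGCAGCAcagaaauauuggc
miR-497: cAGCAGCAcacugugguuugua
miR-27a: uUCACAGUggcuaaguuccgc
miR-27b: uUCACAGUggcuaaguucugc
let-7a: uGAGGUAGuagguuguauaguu
let-7c: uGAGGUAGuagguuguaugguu
miR-99a: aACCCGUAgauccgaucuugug
miR-125b-5p: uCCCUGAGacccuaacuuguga

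The signal of a miRNA was divided by the 75th percentile of its array over 52 miRNAs detected on all 15 arrays, and is given on the log2 scale throughout. Values are comparable between arrays for 1 miRNA, and were not compared between miRNAs. A floor of -5.21 was set, which understates the fold change of a miRNA near it. The syngeneic arrays detected 71 to 102 mouse miRNAs and those of day 100 detected 60 to 90. Replicate 1 of day 100 was a noisier array, whose additive error was 13.1 intensity units where no other array exceeded 3.66, and 34 of its 103 tested miRNAs lay at the floor. The 15 arrays lay on 2 slides. Slide 2 held the 3 grafts of day 100, the 3 allografts of day 5 and syngeneic replicate 3, while syngeneic replicates 1 and 2 lay on slide 1. A fit with the slide as a block therefore sets day 100 against syngeneic replicate 3, a single graft, and its value is given beside the results that it changes.

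Of the 103 miRNAs, 32 differed between the grafts of day 100 and the syngeneic grafts, which is 31.1% of those tested (limma over all 15 arrays, Benjamini-Hochberg adjusted p under 0.05). The numbers of higher and lower miRNAs were nearly equal, at 17 (16.5%) and 15 (14.6%). Most differences were moderate, and 10 of the 32 were at least 2-fold. The largest falls among called miRNAs that were detected on all 6 arrays and did not overlap were those of miR-101b (2.96-fold) and miR-101a (2.67-fold), and the corresponding largest rise was that of miR-15b (2.79-fold). For 30 miRNAs (29.1%) the grafts of day 100 did not overlap with the syngeneic grafts, and 24 of these were called. The split between the directions depended on the scaling: without any scaling between arrays the median of all miRNAs shifted by 0.33 and the calls became 19 higher and 5 lower, and with the total signal of the scanner software they became 17 higher and 26 lower.

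The values of the rises moved more than those of the falls when the slide was a block. As the block leaves syngeneic replicate 3 as the only control, the slide and the level of this graft cannot be told apart. With the block, 16 miRNAs (15.5%) were called, 14 lower (13.6%) and 2 higher (1.94%). All 32 miRNAs kept the sign of their change in that fit. The median log2 fold change of the 15 lower miRNAs was -1.05 without and -1.21 with the block, while that of the 17 higher miRNAs was 0.85 without and 0.31 with it. Over all 103 miRNAs the median was 0.00 without and -0.17 with the block. For each of the 17 higher miRNAs, syngeneic replicate 3, the array that shared its slide with day 100, was the highest of the 3 syngeneic arrays, compared with 69 of all 103 miRNAs. A high value of replicate 3 makes a rise smaller and a fall larger in the fit with the block. Replicate 3 was also the highest for 9 of the 15 lower miRNAs, and these are the falls listed next. The fits with and without the block had 11 calls in common (10.7%): the miRNAs miR-101a, miR-101b, miR-19a, miR-21, miR-29b, miR-29c, miR-30a, miR-192 and miR-194 were lower, and miR-15b and miR-342-3p were higher. Of these, miR-101a, miR-101b, miR-29c, miR-30a, miR-15b and miR-342-3p were also called in all 6 fits that left out 1 of the 6 arrays. The calls of miR-30e, miR-690, miR-705, miR-202-3p and miR-23a held in all 6 such fits too, but not with the block. Leaving out replicate 3 of day 100 lowered the count of calls to 11, and leaving out syngeneic replicate 2 lowered it to 14. It was 33 without the noisier replicate 1 of day 100, where 29 of the 32 were called again. With only these 6 arrays in the fit, limma called 2, miR-101b and miR-342-3p. The standard errors given below come from a spread shared by all 15 arrays. Estimated array weights, which are lower for more variable arrays, were 0.28 to 0.59 for the syngeneic grafts and 2.50 to 3.01 for the allografts of day 8. The standard errors may therefore understate the spread among the syngeneic grafts. Without scaling, 17 of the 17 higher and 4 of the 15 lower miRNAs were called again in the same direction, whereas with normexp background correction 4 of the 17 higher and 10 of the 15 lower were. With no filter on detection, where all 567 miRNAs were tested, 2 of the higher and 3 of the lower were called again.

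**Figure D1:**
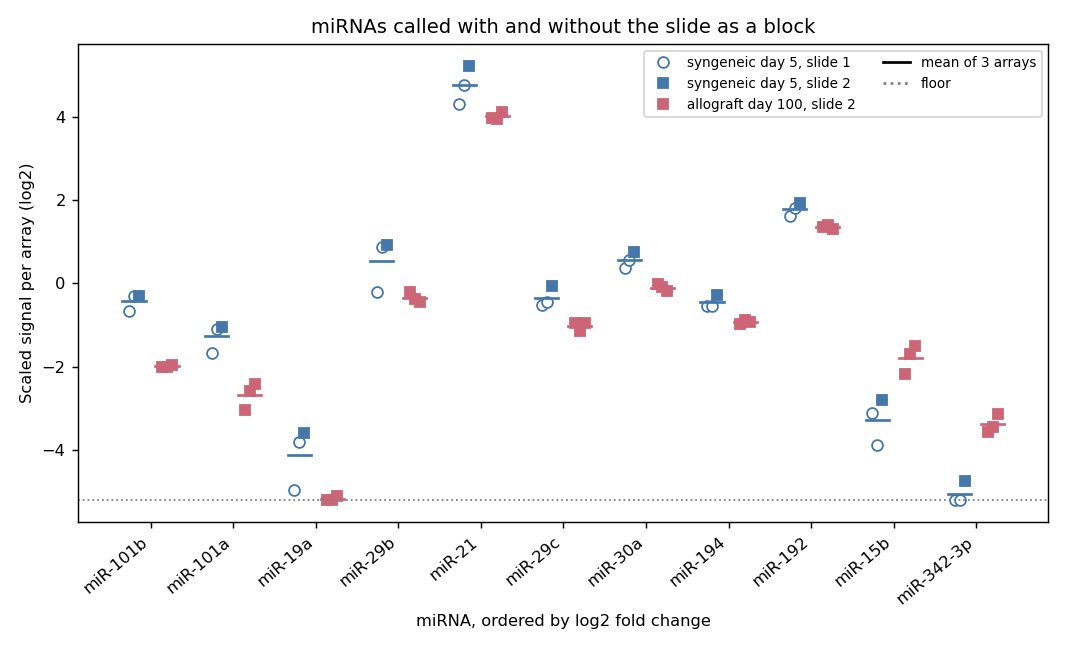
Scaled signal (log2, vertical axis) on each array for the 11 miRNAs called both with and without the slide as a block. Blue symbols are the 3 syngeneic grafts of day 5 (open circles on slide 1, squares on slide 2), red squares the 3 allografts of day 100, short bars the group means and the dotted line the floor of -5.21. The groups do not overlap for any of the 11, and the gap between syngeneic replicate 3 and the day 100 arrays is the widest of the 3 syngeneic arrays in each of the 9 falls.

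**Figure D2:**
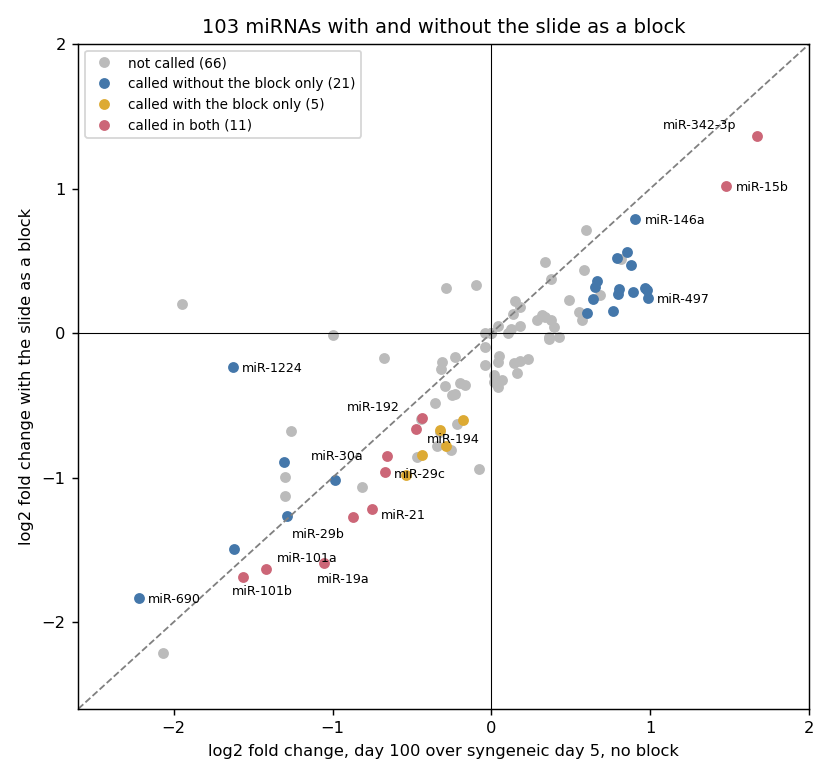
Log2 fold change of day 100 over syngeneic day 5 for each of the 103 tested miRNAs without a block (horizontal axis) and with the slide as a block (vertical axis). Colors mark in which fit a miRNA was called, and the dashed line marks equal values. The 17 higher miRNAs all lie below the line, with a median of 0.85 without and 0.31 with the block, whereas the 2 miR-101 points lie near it.

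The miR-101 pair showed the steadiest falls. MiR-101 represses Ezh2, the methyltransferase of Polycomb complex 2. MiR-101b had a signal of -0.66, -0.31 and -0.30 on syngeneic replicates 1, 2 and 3 and -2.001, -2.01 and -1.95 on those of day 100. The 3 allografts spread over 0.06 and lay 1.29 below the lowest syngeneic graft. The log2 fold change was -1.57 ± 0.19 (SE, n = 3 per group; limma adjusted p = 8.5e-05) and the block left it at -1.69 ± 0.26. MiR-101a had -1.67, -1.09 and -1.06 in the syngeneic grafts and -3.05, -2.59 and -2.42 on day 100. Its groups did not overlap either, with the noisier replicate 1 lowest, and the log2 fold change was -1.42 ± 0.22 (limma adjusted p = 0.00092) or -1.24 without that array. The mature miRNAs come from separate loci, miR-101a at chr4:101346957-101346977 (-) within the span of the lncRNA E130102H24Rik and miR-101b at chr19:29135338-29135356 (+) within the span of Rcl1. The mature forms share a run of 15 bases that starts at base 1 of miR-101a and base 2 of miR-101b, so their capitals differ by that shift.

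In the miR-29 family, miR-29b and miR-29c were lower on day 100 and miR-29a was not, beside 14.6% lower among all tested miRNAs. The family restrains collagen synthesis and is made in liver by both hepatocytes and stellate cells. MiR-29b had -0.21, 0.86 and 0.93 in the syngeneic grafts and -0.22, -0.38 and -0.44 on day 100. Syngeneic replicate 1 exceeded the highest allograft by 0.0035, so this separation rested on the other syngeneic arrays. The log2 fold change was -0.87 ± 0.25 (limma adjusted p = 0.022), and the call was lost without syngeneic replicate 2 or 3, or without replicate 3 of day 100. Its log2 fold change then lay between -1.24 and -0.67 over the 6 fits that left out 1 array. MiR-29c ranged from -0.53 to -0.05 in the syngeneic grafts and from -1.15 to -0.95 on day 100, a log2 fold change of -0.67 ± 0.17 (limma adjusted p = 0.014; -0.96 with the block). MiR-29a ranged from -0.53 to 0.41 and from 0.36 to 0.66, with a log2 fold change of 0.55 ± 0.20 that was not called (limma adjusted p = 0.054; 0.15 with the block). MiR-29a and miR-29c differ by 1 base, written C10U with the base of miR-29a first and counted from the 5′ end, so their probes may share part of their signal. The change of miR-29a exceeded that of miR-29c by 1.22 on the log2 scale within arrays. The difference between the 2 miRNAs was larger on every array of day 100 than on any syngeneic array. This pair, like those of other relatives compared within arrays, was chosen after its values were seen and was not tested. Against syngeneic replicate 3 alone, on the same slide, it was 1.11. The pair that fell includes the cluster on chromosome 1, with miR-29c at chr1:195037600-195037621 (+) and 1 of the copies of miR-29b at chr1:195037091-195037113 (+), within the span of the lncRNA A330023F24Rik. The other copy of miR-29b lies beside miR-29a on chromosome 6, at chr6:31063025-31063047 (-) and chr6:31062673-31062694 (-), and the array cannot tell the copies apart.

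The miR-30 family showed the same kind of split. Its members are abundant in hepatocytes and other epithelia, and miR-30a is known to repress the autophagy gene Becn1. Of the 5 members tested, 2 were lower and 3 were not called, beside 14.6% lower among all tested miRNAs. MiR-30e had -2.20, -1.31 and -1.70 in the syngeneic grafts and -2.85, -2.58 and -2.73 on day 100, without overlap (log2 fold change -0.98 ± 0.24, limma adjusted p = 0.011). With the block its value was nearly the same, at -1.02 ± 0.34, but it was not called. MiR-30a ranged from 0.36 to 0.75 in the syngeneic grafts and from -0.19 to -0.01 on day 100 (log2 fold change -0.66 ± 0.14, limma adjusted p = 0.0067; -0.85 with the block). The log2 fold changes of miR-30d, miR-30b and miR-30c were -0.32, -0.04 and 0.18, with limma adjusted p from 0.074 to 0.91. MiR-30a and miR-30e differ by 1 base, C13U with the base of miR-30a first. MiR-30e, at chr4:120772660-120772681 (-), and 1 copy of miR-30c, at chr4:120769584-120769606 (-), lie within the span of Nfyc, and miR-30a lies on chromosome 1 at chr1:23272274-23272295 (+) with the other copy of miR-30c at chr1:23291714-23291736 (+). The within-array difference of miR-30c over miR-30e was higher by 1.16 on day 100, and that over miR-30a by 0.84, with no overlap of the groups in either case. The family's median log2 fold change was -0.32, beside 0.00 for all tested miRNAs, and its sign turned to 0.24 without scaling, where the median of all miRNAs was 0.33.

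MiR-21 was lower in the accepted allografts than in the syngeneic grafts. MiR-21 represses Pdcd4 and is transcribed from the end of the Vmp1 gene on chromosome 11, at chr11:86584120-86584141 (-). The syngeneic grafts had 4.31, 4.77 and 5.23 and the grafts of day 100 3.98, 3.96 and 4.11. The values of day 100 spread over 0.15, while the syngeneic values spread over 0.92. This was a 1.69-fold difference (log2 fold change -0.75 ± 0.22, limma adjusted p = 0.022), and -1.21 ± 0.25 with the slide as a block. Without scaling this value was -0.19, where all tested miRNAs had a median of 0.33, and it was not called. After quantile normalization it was 0.00 and not called, beside a median of 0.07. That 0.00 was fixed by rank, since miR-21 held the same rank on every array of both groups and equal ranks receive equal values. The call was lost without syngeneic replicate 2 or 3, or without replicate 3 of day 100, with log2 fold changes from -0.98 to -0.52 over the fits that left out 1 array.

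Of the 7 hepatocyte miRNAs on the list 6 were tested, of which miR-192 and miR-194 were lower, none was higher and 4 were not called, beside 14.6% lower among all tested miRNAs, with a median log2 fold change of -0.34 against 0.00 for all tested miRNAs and 0.22 without scaling, where all miRNAs had 0.33. MiR-192 fell 1.35-fold, from 1.61 to 1.94 in the syngeneic grafts to 1.31 to 1.39 on day 100 (limma adjusted p = 0.026). MiR-194 fell 1.39-fold, from -0.55 to -0.27 to -0.98 to -0.88 (limma adjusted p = 0.023). Neither overlapped between the groups, and both were also called with the block, at -0.59 and -0.66, but without scaling their log2 fold changes were 0.12 and 0.0833, below the median shift. The call of miR-192 was lost without syngeneic replicate 2 or 3 or without replicate 3 of day 100 (log2 fold changes from -0.52 to -0.36 over the 6 fits), and that of miR-194 was lost without replicate 3 of day 100 (from -0.52 to -0.38). These miRNAs share a transcript on chromosome 19, with miR-192 at chr19:6264857-6264877 (+) and 1 copy of miR-194 at chr19:6264658-6264679 (+). The other copy of miR-194 lies at chr1:185313325-185313346 (+) within the span of Iars2. MiR-122, the defining miRNA of hepatocytes, was detected on all 6 arrays with 4.66, 4.72 and 4.88 in the syngeneic grafts and 4.37, 4.56 and 4.27 on day 100. These values do not overlap, but the difference of -0.36 ± 0.15 was not called (limma adjusted p = 0.076). Its direction turned without scaling, to 0.20, not called. With quantile normalization, which sets each value by its rank on the array, it was 1.097 and called. MiR-122 was the brightest tested miRNA on each array of day 100, but ranked below miR-720 and miR-21 on syngeneic replicates 2 and 3. The value of 1.097 therefore comes from ranks and does not measure the size of a rise. MiR-148a, which was called with the block at -0.67, had -0.32 ± 0.16 without it (limma adjusted p = 0.14). MiR-193 and miR-365 had log2 fold changes of -0.29 and 0.39 and were not called, and miR-802 was not detected on any of the 6 arrays. The summed scaled signal of the 6 hepatocyte miRNAs, on the linear scale, was 30.7 to 36.7 in the syngeneic grafts and 24.1 to 28.7 on day 100. Most of this sum is the signal of miR-122, so it is no separate result for the list.

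Among the miRNAs encoded with miR-17 and miR-92a and their paralogs, which promote proliferation, 8 were tested. Of these, miR-19a was lower on day 100 and the other 7 were not called, beside 14.6% lower among all tested miRNAs. MiR-19a, at chr14:115044048-115044070 (+), had -4.97, -3.80 and -3.58 in the syngeneic grafts, where 2 of 3 arrays detected it, and -5.21, -5.21 and -5.10 on day 100, where none did. It was at least 1.32-fold lower, taking for each array of day 100 the lowest detected signal of that array (log2 fold change as fitted -1.05 ± 0.31, limma adjusted p = 0.023). The call held with the block but was lost without syngeneic replicate 2 or 3 or without replicate 3 of day 100, with fitted values from -1.48 to -0.79. MiR-19b, with the same seed, had -0.54 ± 0.24 without the block (limma adjusted p = 0.090) and was called with it at -0.98. MiR-20a had -0.44 and was also called with the block at -0.84. MiR-20b, miR-106b, miR-93, miR-25 and miR-92a ranged from -0.34 to 0.68. The median of the 8 members was -0.30 and turned to 0.17 without scaling.

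Apart from that of miR-1224, the remaining falls belonged to dim miRNAs, for several of which little function is known. MiR-690 had -1.56, -3.17 and -2.95 in the syngeneic grafts and -4.23, -5.21 and -4.91 on day 100. It was well above background on all 3 syngeneic arrays and on 1 of day 100, and its 4.66-fold fall was the largest fitted value of the comparison (log2 fold change -2.22 ± 0.44, limma adjusted p = 0.0049). With the block it had -1.83 ± 0.64 and was not called. MiR-212, which is induced by Creb signaling, had -4.77, -2.23 and -3.68 and -5.21, -5.11 and -5.21. It was detected on 2 syngeneic arrays and on none of day 100, and was at least 1.99-fold lower (limma adjusted p = 0.020), a call that was lost without replicate 3 of day 100, where the fitted log2 fold change was -1.60, and the fitted value was -0.95 without syngeneic replicate 2. MiR-705 had -3.03, -3.44 and -3.86 and -5.21, -4.56 and -4.48 and was likewise detected on 2 and 0 arrays, at least 1.80-fold lower (limma adjusted p = 0.016). MiR-202-3p had -3.90, -2.71 and -3.33 and -5.21, -4.09 and -4.49, a log2 fold change of -1.28 ± 0.30 (limma adjusted p = 0.011). For these 4 miRNAs the arrays of the groups did not overlap, and replicate 1 of day 100 lay at the floor for miR-212, miR-705 and miR-202-3p. MiR-1224 overlapped between the groups, with 2.66, 0.91 and -0.31 in the syngeneic grafts and -0.89, -0.03 and -0.71 on day 100. Its log2 fold change of -1.63 ± 0.56 (limma adjusted p = 0.041) rested on syngeneic replicate 1 and was -0.84 without it and -0.23 with the block. None of the 5 was called with the block.

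**Figure D3:**
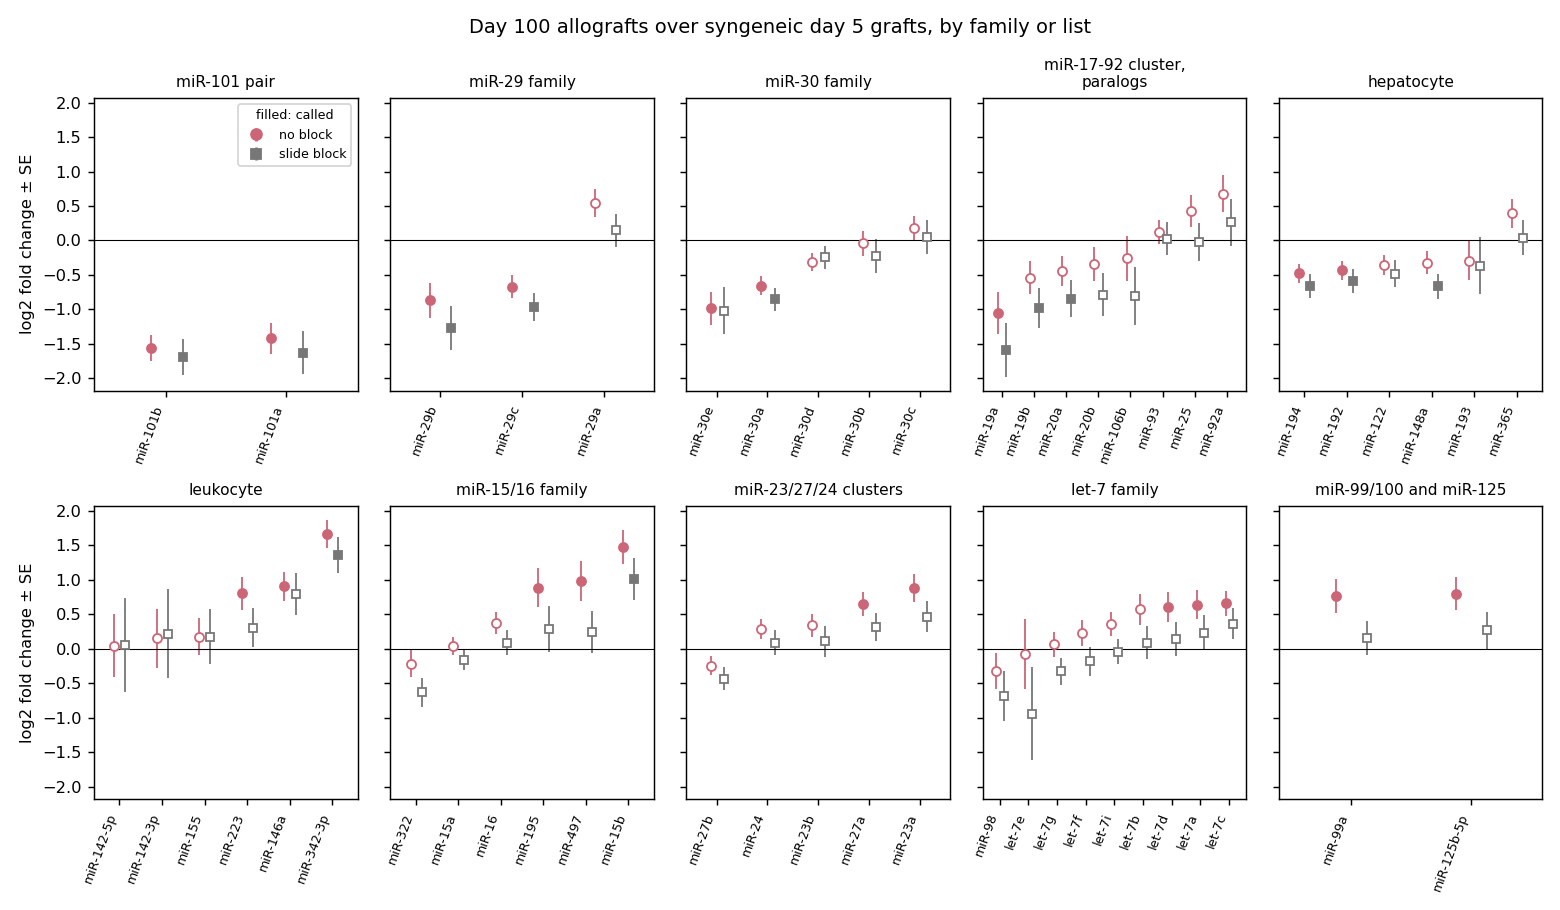
Log2 fold change of day 100 over syngeneic day 5 with its standard error (vertical axis) for each tested member of 10 families and lists, without a block (red circles) and with the slide as a block (grey squares), filled where called. Both members of the miR-101 pair are lower in both fits, the miR-29, miR-30 and miR-15/16 families are split, and the filled circles of the let-7 family and of the lists of miR-99 with miR-125 and miR-23 with miR-27 have no filled square beside them.

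Among the rises, miR-342-3p had the largest fold change. It is a leukocyte miRNA made from an intron of Evl, at chr12:108658680-108658702 (+). The signal was -5.21, -5.21 and -4.75 in the syngeneic grafts, 2 of which lay at the floor, and -3.56, -3.46 and -3.13 on day 100. Only 1 syngeneic array and 2 of day 100 detected it, and the groups were well apart. The log2 fold change was 1.67 ± 0.20 (3.18-fold, understated by the floor, limma adjusted p = 8.5e-05), 1.36 ± 0.26 with the block, and 1.76 without the noisier array. With normexp background correction it was 0.18 and was not called.

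Of the 10 leukocyte miRNAs, 6 were tested and 3, miR-342-3p, miR-146a and miR-223, were higher on day 100, beside 16.5% of all tested miRNAs. MiR-146a, which is induced by NF-kB and dampens Traf6 and Irak1, had -3.94, -3.91 and -3.75 in the syngeneic grafts and -3.27, -2.91 and -2.70 on day 100. The groups did not overlap (log2 fold change 0.91 ± 0.21, limma adjusted p = 0.011), and the block left 0.79 ± 0.31, which was not called. The call was also lost without replicate 3 of day 100, where the value was 0.78. MiR-223, a miRNA of neutrophils and macrophages, had -3.06, -2.66 and -2.12 and -2.02, -1.58 and -1.83. Its arrays did not overlap, but syngeneic replicate 3 came within 0.09 of the lowest graft of day 100. The 1.74-fold rise (limma adjusted p = 0.025) was reduced to 0.31 ± 0.29 on the log2 scale with the block, and its call was lost without syngeneic replicate 1 or 2, or without replicate 2 or 3 of day 100 (log2 fold changes from 0.58 to 1.05). MiR-142-3p and miR-142-5p, which are found across blood cells, had log2 fold changes of 0.15 ± 0.43 and 0.04 ± 0.46, and miR-155, an miRNA of activated lymphocytes, had 0.18 ± 0.27 and was detected on 1 array of day 100 and on no syngeneic array. None of these 3 was called. MiR-150, miR-146b, miR-181a and miR-181b were not detected on any of the 6 arrays. The summed scaled signal of the 6 tested leukocyte miRNAs overlapped between the groups, at 0.752 to 1.82 in the syngeneic grafts and 1.28 to 1.66 on day 100. Most of this sum is the signal of miR-142-3p, here and in the allografts of day 5 below. The part of leukocyte number in the rises of single members was not tested.

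MiR-15b rose most among the miRNAs detected on all 6 arrays. It lies with 1 copy of miR-16 within the span of Smc4, at chr3:69009775-69009796 (+) and chr3:69009918-69009939 (+), and the miR-15/16 family represses Bcl2 and several cyclins. The syngeneic grafts had -3.11, -3.89 and -2.81 and the grafts of day 100 -2.17, -1.70 and -1.51. Every graft of day 100 exceeded every syngeneic graft by at least 0.64, and the log2 fold change was 1.48 ± 0.25 (2.79-fold, limma adjusted p = 0.0012) or 1.02 ± 0.30 with the block. MiR-16 had 0.37 ± 0.16 (limma adjusted p = 0.079; 0.09 with the block), so the within-array difference of miR-15b over miR-16 was higher by 1.11 on day 100, without overlap, and by 0.93 against syngeneic replicate 3. The other members of the family with this seed were split. Of its 6 tested members, 3 were higher, beside 16.5% of all tested miRNAs. MiR-497 and miR-195 are encoded together on chromosome 11, at chr11:70234730-70234751 (+) and chr11:70235062-70235082 (+). MiR-497 had -4.86, -5.21 and -3.93 in the syngeneic grafts, 1 of which detected it, and -3.82, -3.86 and -3.37 on day 100, where all 3 did. The arrays did not overlap, but syngeneic replicate 3 lay within 0.07 of the lowest graft of day 100 (log2 fold change 0.98 ± 0.29, limma adjusted p = 0.025). MiR-195 ranged from -5.21 to -4.05 and from -4.25 to -3.23 with overlap (log2 fold change 0.89 ± 0.28, limma adjusted p = 0.029). With the block the values were 0.24 and 0.29, neither called. Both calls were also lost without syngeneic replicate 1 or 2 or without replicate 3 of day 100, and that of miR-195 also without replicate 2 of day 100 (log2 fold changes from 0.71 to 1.35 for miR-497 and from 0.61 to 1.19 for miR-195). MiR-15a and miR-322 had 0.05 and -0.21 and were not called.

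Of the 5 tested members of the miR-23/27/24 clusters, miR-23a and miR-27a were higher and 3 were not called, beside 16.5% higher among all tested miRNAs. MiR-23a and miR-27a are made with 1 copy of miR-24 from a cluster on chromosome 8. MiR-23b and miR-27b come from a paralogous cluster on chromosome 13, and miR-27 is known to repress Pparg. MiR-23a had -1.38, -1.86 and -1.003 in the syngeneic grafts and -0.54, -0.74 and -0.32 on day 100 (log2 fold change 0.88 ± 0.20, limma adjusted p = 0.011). MiR-27a had -2.16, -2.05 and -1.61 and -1.45, -1.26 and -1.16 (log2 fold change 0.65 ± 0.17, limma adjusted p = 0.019). The groups did not overlap for either miRNA. With the block the values were 0.47 and 0.32, not called, and the call of miR-27a was also lost without syngeneic replicate 2 or replicate 3 of day 100 (0.54 at the lowest over the 6 fits). MiR-23b, miR-24 and miR-27b had log2 fold changes of 0.34, 0.28 and -0.25 and were not called. For miR-23b all grafts of day 100 still lay above all syngeneic grafts, by at least 0.07. MiR-27a, at chr8:84208727-84208747 (+), and miR-27b, at chr13:63300760-63300780 (+), differ by 1 base (C19U, with the base of miR-27a first). The within-array difference of miR-27a over miR-27b was higher on day 100 by 0.90, and by 0.75 against syngeneic replicate 3, and its groups did not overlap. That of miR-23a over miR-23b was higher by 0.54, also without overlap.

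Of the 9 members of the let-7 family, which represses Ras, Hmga2 and Lin28 and accumulates in differentiated cells, 3 were higher and 6 were not called, beside 16.5% higher among all tested miRNAs. Let-7c had -0.36, -0.81 and -0.14 in the syngeneic grafts and 0.03, 0.33 and 0.31 on day 100 (log2 fold change 0.66 ± 0.18, limma adjusted p = 0.020). Let-7a had 0.71, 0.04 and 0.99 and 1.103, 1.32 and 1.24 (log2 fold change 0.64 ± 0.21, limma adjusted p = 0.036). For both, the grafts of day 100 lay above all syngeneic grafts, of which replicate 2 was the lowest. Let-7d was 1.52-fold higher with overlapping arrays (limma adjusted p = 0.049). The other 6 members ranged from -0.32 for miR-98 to 0.57 for let-7b. Let-7a and let-7c differ by 1 base, A19G with the base of let-7a first, so signals may be shared. The family's median was 0.36, beside 0.00 for all tested miRNAs, and fell to -0.04 with the block, where no member was called and the values of let-7c, let-7a and let-7d were 0.36, 0.23 and 0.14. All 3 calls were lost without syngeneic replicate 2 and without replicate 3 of day 100, and the lowest values over the 6 fits were 0.47, 0.37 and 0.32. Those of let-7a and let-7d were also lost without replicate 2 of day 100, and that of let-7d without syngeneic replicate 1.

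A copy of let-7c lies on chromosome 16, at chr16:77599672-77599693 (+), beside miR-99a at chr16:77598940-77598961 (+) and 1 copy of miR-125b at chr16:77646279-77646300 (+). All 3 miRNAs of this cluster rose, and as background, miR-125b acts in blood progenitors and miR-99a represses Mtor. MiR-99a ranged from -3.86 to -2.69 in the syngeneic grafts and from -2.73 to -2.24 on day 100 (log2 fold change 0.76 ± 0.24, limma adjusted p = 0.029), and miR-125b-5p from -3.22 to -2.14 and from -2.16 to -1.53 (log2 fold change 0.80 ± 0.24, limma adjusted p = 0.025). The groups overlapped in both, through syngeneic replicate 3. With the block both were uncalled, at 0.15 and 0.27, and both calls were lost without syngeneic replicate 2 or replicate 3 of day 100, and that of miR-99a without syngeneic replicate 1 (lowest values 0.49 and 0.53). Let-7c and miR-125b are also made from other loci, and the array measured their sum. The other 3 members of the list of miR-99, miR-100 and miR-125 were not tested.

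Of the 7 miRNAs listed for stellate cells and fibroblasts, 4 were tested. Of these, miR-10a and miR-199b were higher, miR-21 was lower and miR-214 was not called. Among all tested miRNAs, 16.5% were higher and 14.6% lower. MiR-10a, from the Hoxb cluster, ranged from -4.55 to -3.17 and from -3.17 to -2.51, and miR-199b from -3.93 to -2.76 and from -3.02 to -2.01. Their log2 fold changes were 0.98 ± 0.28 and 0.96 ± 0.30 (limma adjusted p = 0.022 and 0.028), with overlapping arrays, and fell to 0.30 and 0.31 with the block. Both calls were lost without syngeneic replicate 2 or without replicate 1 or 3 of day 100, and that of miR-199b without syngeneic replicate 1 (lowest values 0.62 and 0.71). MiR-214 had 0.58 ± 0.29. MiR-34a, a target of p53, was 1.80-fold higher with overlapping arrays (limma adjusted p = 0.033), and its log2 value of 0.85 became 0.56 with the block and 0.58 at the lowest when 1 array was left out, with 4 of 6 such fits losing the call. MiR-652 had -4.60, -5.21 and -4.51 in the syngeneic grafts and -4.46, -3.83 and -3.66 on day 100, and 2 arrays of each group detected it. The groups were 0.04 apart, at a log2 fold change of 0.79 ± 0.22 (limma adjusted p = 0.020; 0.52 with the block), and the call was lost without syngeneic replicate 2 or replicate 3 of day 100 (0.57 at the lowest). With normexp background correction, miR-652, miR-195 and miR-497 had log2 fold changes of -0.0675, -0.0425 and -0.0319.

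Other cell type markers gave no call. MiR-451 and miR-144, which red cell precursors make from 1 transcript, had 0.59 ± 0.34 and -1.26 ± 0.47 (limma adjusted p = 0.17 and 0.056), and miR-486 was not detected on any of the 6 arrays. MiR-126-3p of endothelium had 0.32 ± 0.12 with all 3 grafts of day 100 above the syngeneic grafts, and was not called (limma adjusted p = 0.063). None of the 5 biliary miRNAs of the miR-200 family was tested, and 2 of them were detected on 1 syngeneic array. MiR-26a and miR-26b, abundant in liver, had log2 fold changes of 0.04 and 0.14. The 10 miRNAs singled out in the study were chosen on these samples and are no independent evidence of direction. Of them, 6 were higher (miR-146a, miR-15b, miR-223, miR-23a, miR-27a and miR-34a) and 2 were lower (the miR-101 pair). The other members, miR-148a and miR-451, were not called. The shares among all tested miRNAs were 16.5% higher and 14.6% lower.

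A comparison with the allografts of day 5 avoids the slide, since all 6 of its arrays lay on slide 2. It shares the arrays of day 100 with the comparison above, so the values are given side by side and their likeness is not a result. Of the 103 miRNAs, 30 differed (29.1%; limma adjusted p under 0.05), with 8 higher (7.77%) and 22 lower (21.4%) in the late grafts. Leaving out replicate 1 of day 100 gave 19 calls, and leaving out replicate 1 or 3 of day 5 gave 18 or 16. MiR-342-3p, with -3.10, -2.73 and -2.43 on day 5, was 1.55-fold lower on day 100 (log2 fold change -0.63 ± 0.20, limma adjusted p = 0.034) while 1.67 above the syngeneic grafts. MiR-223, with -0.75, -1.12 and -0.38 on day 5, was 2.09-fold lower on day 100 (log2 fold change -1.06 ± 0.24, limma adjusted p = 0.0090) and 0.80 above the syngeneic grafts. Both leukocyte miRNAs therefore lay between the syngeneic grafts and the early allografts on every array. The summed signal of the 6 leukocyte miRNAs was 3.21 to 8.36 on day 5, above every graft of day 100. MiR-142-3p and miR-142-5p were lower on day 100 than on day 5 (-1.83 ± 0.43 and -1.84 ± 0.46), and so was miR-155 (-1.002 ± 0.27), although none of these was called against the syngeneic grafts. The call of miR-342-3p was lost without replicate 1 or 2 of day 100 or replicate 2 or 3 of day 5 (log2 fold changes from -0.80 to -0.47), that of miR-155 without replicate 1 of day 100 or replicate 3 of day 5 (from -1.21 to -0.79), and that of miR-142-5p without replicate 3 of day 5 (from -2.10 to -1.39). Those of miR-223 and miR-142-3p held in all 6 such fits.

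Some miRNAs were lower on day 100 than in both early groups. MiR-21, with 5.29, 4.99 and 5.45 on day 5, was 2.35-fold lower on day 100 (log2 fold change -1.23 ± 0.22, limma adjusted p = 0.0030). MiR-101b and miR-101a had log2 fold changes of -0.80 ± 0.19 and -0.93 ± 0.22 from day 5 (limma adjusted p = 0.0090 and 0.0095), and miR-19a and miR-690 had -1.67 ± 0.31 and -1.39 ± 0.44 (limma adjusted p = 0.0030 and 0.033). MiR-101b on day 5, at -1.26, -1.25 and -1.05, lay below the syngeneic grafts and above those of day 100. The miR-101 falls were not confined to day 100. Allografts of day 14 had means of -2.71 for miR-101a and -2.42 for miR-101b, beside -2.69 and -1.99 on day 100. Their means of miR-21, miR-19a and miR-690, at 4.79, -4.49 and -3.19, lay above those of day 100. Of the clusters of miR-19a and its paralogs, miR-19b, miR-20a, miR-20b, miR-106b and miR-93 were also lower than on day 5, with log2 fold changes of -1.01, -1.19, -1.50, -1.13 and -0.58. Leaving out 1 of the 6 arrays kept the calls of miR-21, the miR-101 pair, miR-19a, miR-19b, miR-20a and miR-20b. The call of miR-690 was lost without replicate 2 or 3 of day 100 or replicate 1 or 3 of day 5 (from -1.66 to -1.17), that of miR-106b without replicate 1 of day 100 or replicate 1 or 3 of day 5 (from -1.41 to -0.67), and that of miR-93 without replicate 1 or 2 of either group (from -0.74 to -0.50).

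Others were higher on day 100 than in both early groups. Let-7c, with -0.98, -0.48 and -0.74 on day 5, was 1.94-fold higher on day 100 (log2 fold change 0.96 ± 0.18, limma adjusted p = 0.0030), and all 3 grafts of day 100 lay above all 6 earlier grafts. Let-7a had 0.64 ± 0.21, miR-125b-5p 0.79 ± 0.24, miR-195 0.93 ± 0.28 and miR-497 0.88 ± 0.29 (limma adjusted p from 0.0030 for let-7c to 0.037 for let-7a). For these 5 miRNAs the difference from the allografts of day 5 lay between arrays of 1 slide, whereas their difference from syngeneic replicate 3 alone was not called. The call of let-7c held whichever array was left out. That of miR-125b-5p was lost without replicate 1 or 3 of either group (from 0.62 to 0.94), that of miR-195 without replicate 3 of day 100 or replicate 1 or 3 of day 5 (from 0.67 to 1.18), that of let-7a in every fit but the one without replicate 2 of day 5 (from 0.50 to 0.79), and that of miR-497 in every fit but the one without replicate 2 of day 100 (from 0.73 to 0.97). MiR-99a and miR-10a had 0.67 ± 0.24 and 0.77 ± 0.28 and were not called (limma adjusted p = 0.051 for each). By contrast, miR-15b, miR-146a, miR-23a and miR-27a had values of -0.06, -0.14, 0.10 and -0.18 against day 5 with standard errors from 0.17 to 0.25, and were not called, as were miR-192, miR-194, miR-29b, miR-29c, miR-30a and miR-30e, whose values ranged from -0.41 to 0.02.

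**Figure D4:**
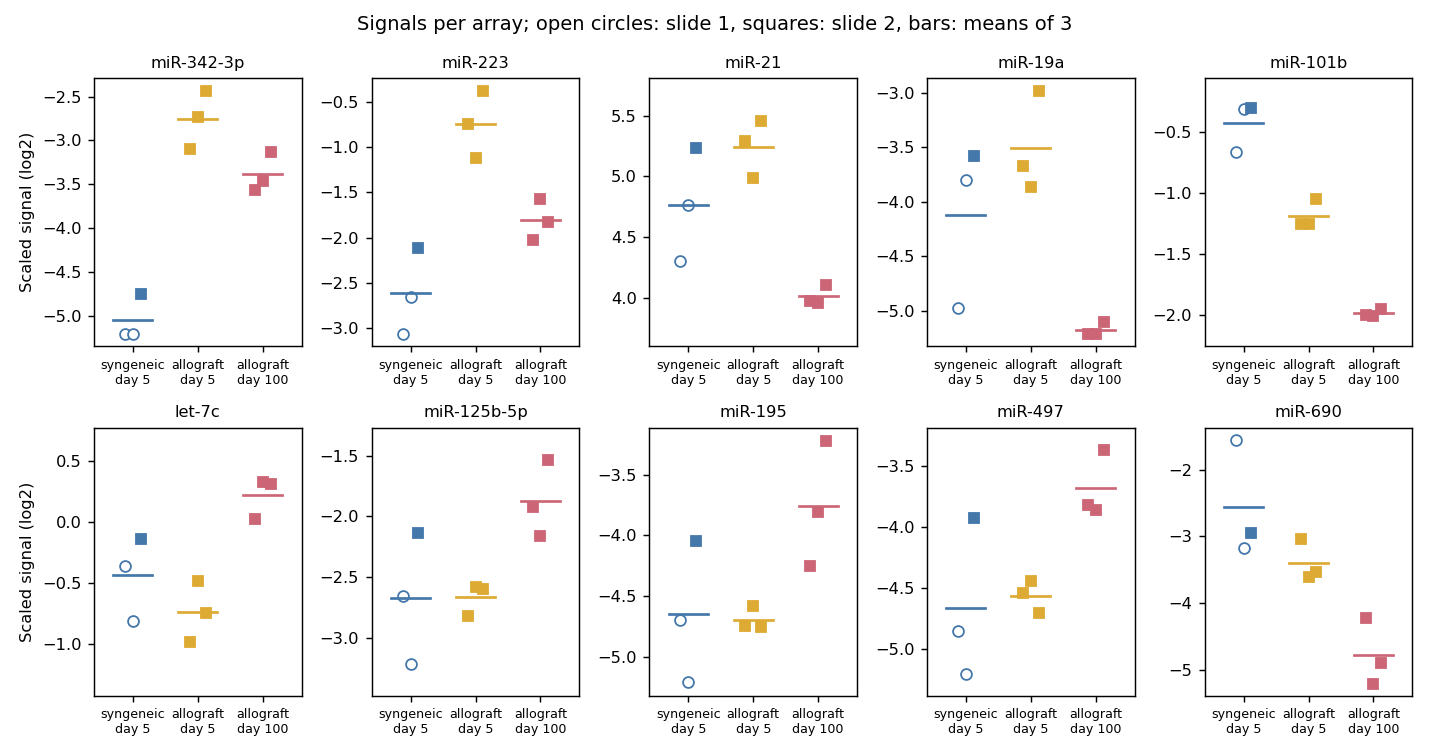
Scaled signal (log2, vertical axes differ between panels) on each array for 10 miRNAs in syngeneic grafts of day 5 (blue), allografts of day 5 (yellow) and allografts of day 100 (red), with bars at the means of 3. Open circles are arrays of slide 1 and squares those of slide 2. MiR-342-3p and miR-223 on day 100 lie between the other groups, miR-21, miR-19a, miR-101b and miR-690 lie below both, and let-7c lies above both.

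Sequences were matched for 89 of the 103 tested miRNAs, among them all 32 called. In this set 12 seeds were shared by more than 1 miRNA, 6 of these families had a called member, no family had members called in both directions, and no family had every member called. The median GC content was 43.5% for the 17 higher miRNAs, 45.5% for the 15 lower ones and 45.5% for the 89, and the median length was 22 bases in each set. The 9 lower miRNAs that were also called with the block had a median GC content of 36.4%, with a range of 33.3% to 47.6%. These are descriptions of small sets, and relatives within them share sequence.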

How the data were processed

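RNA of each liver graft carried a Cy3 label and was hybridized to 1 Agilent mouse miRNA array. The authors deposited spot intensity values from Feature Extraction 9.5.1.1 (version per the file headers), which are linear, corrected for background and not normalized between arrays. A table of processed values was not used, because many of its row names stand beside another miRNA's values. The genome build of the probe design is not given in the sources used here.

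Spots of a probe were averaged after control and outlier spots had been left out, and the probes of a miRNA were added up. Detection required that 0.5 or more of the spots of any probe were flagged well above background. Scaling used the 75th percentile of each array, computed on 52 miRNAs that all 15 arrays detected. A floor of 0.0270, the median of the lowest detected values of the arrays, preceded the log2 step, and 8.28% of the tested values lay there. The miRNAs tested (103) were those that every array of 1 or more groups detected. They were fitted with limma 3.58.1 (R 4.3.3) with 1 mean per group, so that the 15 arrays share an estimate of the spread, and Benjamini-Hochberg adjustment ran over all of them at a threshold of 0.05. Differences between relatives within arrays were computed for pairs chosen after their values were seen, and were not tested. Where no array of a group detected a miRNA, its fold is a bound set by the lowest detected signal of each such array. With 3 grafts per group, their number limits the precision. No spot was saturated, and no arrays held identical values.

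The text names every called miRNA and every tested member of the lists: markers of leukocytes, hepatocytes, erythroid cells, endothelium and smooth muscle, stellate cells and fibroblasts, and biliary epithelium, the families or clusters of let-7, miR-30, miR-29, miR-15 and miR-16, miR-23, miR-27 and miR-24, miR-17 and miR-92a, miR-101, miR-26, miR-99, miR-100 and miR-125, and miR-34, and the 10 miRNAs of the study. Array values are given for the 10 largest rises and 10 largest falls among called miRNAs without overlap, and for miR-122 and miR-1224, chosen after their values were seen. MiR-720 is named for its rank alone, also after its values were seen. The members and lists were chosen with earlier results of these data known. Alternatives covered the scaling, the summary of probes, normexp background correction (offset 50), the filter, the floor, the samples fitted, array weights, the moderation, the methods' t-test, and the replicate number or slide as a block, and each array was left out in turn. The fit was also run on simulated data with known changes and independent noise. That simulation held no slide effect, no floor and no noisier array, so it could not test these limits. Sequences and positions are from RefSeq on GRCm38.p6, matched by name for 89 of the 103 miRNAs. Python 3.11.15 was used for the other steps, with pandas 2.3.3, scipy 1.17.1 and numpy 2.4.6.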

Additional observations from a re-analysis of the deposited data

Results flagged for a closer look

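For 12 of the 32 miRNAs called against the syngeneic grafts, the effect of day 100 differed from that of day 5 over the same syngeneic arrays. This was limma's test of the difference between the allograft days (Benjamini-Hochberg adjusted p under 0.05). The same test called 30 of all 103 tested miRNAs (29.1%), so the count is no trait of the called miRNAs. The shared syngeneic arrays cancel in this difference. MiR-342-3p (-0.63 on the log2 scale) and miR-223 (-1.06) were above the syngeneic grafts on day 100 by less than on day 5. Let-7a (0.64), let-7c (0.96), miR-125b-5p (0.79), miR-195 (0.93) and miR-497 (0.88) were higher on day 100 than on day 5. MiR-101a (-0.93), miR-101b (-0.80), miR-19a (-1.67), miR-21 (-1.23) and miR-690 (-1.39) were lower on day 100 than on day 5.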

How the results depend on the processing

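The main count against the syngeneic grafts was 32 (17 higher and 15 lower). It was 8 (4 higher and 4 lower) with the 75th percentile over all miRNAs, 14 (4 higher) with normexp background correction, 6 (3 higher and 3 lower) with no filter, 2 (1 higher and 1 lower) with only the groups compared, 19 (7 higher) with the methods' t-test unadjusted and 1 (0 higher and 1 lower) with that test after Benjamini-Hochberg adjustment. It was 16 (2 higher) with the slide as a block and 12 (1 higher) with the arrays of slide 2 alone, where syngeneic replicate 3 is the lone control and is assumed to vary like the other groups. The lower miRNAs numbered 5 without scaling and 26 with the total signal of the scanner software. Leaving out 1 array gave 11 to 38 calls, 3 to 25 higher and 8 to 19 lower. The main count against the allografts of day 5 was 30. It was 11 with the 75th percentile over all miRNAs, 14 without scaling, 11 with normexp, 6 with no filter, 12 for miRNAs detected on all 15 arrays, 5 with the adjusted t-test, and 16 to 29 with 1 array left out. The cause of these shifts was not tested.

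Of 784 values of the 32 called miRNAs under 25 alternatives, 778 kept their sign. The detection filters, the fit of only the groups compared, the moderation, the t-tests and the replicate block leave the fold change as it was. The sign could not change under these, so the count overstates how far the direction was tried. An exception was miR-21, at 0.00 and not called with quantile normalization, where its equal ranks fixed the value. The other exceptions were miR-192 (0.12) and miR-194 (0.0833) without scaling and miR-195 (-0.0425), miR-497 (-0.0319) and miR-652 (-0.0675) with normexp, none of them called there. MiR-122, not called in the main fit, was higher and called (1.097) with quantile normalization, a value set by its ranks. MiR-101b was called under 25 of 25 alternatives. As a replicate block, the replicate number gave 30 calls, 15 higher and 15 lower. Deviations from the group mean on same-numbered arrays of day 100 and the syngeneic group had correlations of -0.0041, 0.27 and 0.35. Those of differently numbered arrays ranged from -0.33 to 0.022. These few values cannot settle whether the numbers pair the samples, and the main fit did not pair them. Of the 103 miRNAs, 22 of the 32 called were detected on all 6 arrays, and signals near the floor limit the rest.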
